A study of Mus musculus with 6 samples.

Results

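The ATF4 amino acid and one-carbon program is described here through 42 genes, taken by name from the 24970 rows of the deposited gene table. They comprise 10 stress factors, 9 enzymes of amino acid synthesis, 5 one-carbon enzymes, 8 amino acid transporters and 10 cytosolic tRNA synthetases, and all 42 have a row. RNA was sequenced from vascular smooth muscle cells, which form the muscular layer of arteries, that had been isolated from 6-week-old male C57BL/6 mice and grown in α-MEM with fetal bovine serum. The cells of the control group (siScrambled, 3 libraries) received a scrambled siRNA and those of the other group (siPfkfb3, 3 libraries) an siRNA against Pfkfb3, each at 20 nM with Lipofectamine RNAiMAX, with the time given as 48 h. Small interfering RNAs (siRNAs) lower the mRNAs they match, and Pfkfb3 encodes an enzyme that makes an activator of glycolysis. The source of the 3 cultures of a group, whether separate isolations or wells of 1 pool, is not given, so the p-values measure the spread between these libraries, which may be technical.

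ATF4 is a transcription factor that cells make more of when the initiation factor eIF2 is phosphorylated, which happens when amino acids are short, when proteins misfold in the endoplasmic reticulum, or when virus RNA or mitochondrial damage is sensed. Its control lies largely in the translation of its mRNA, so the Atf4 transcript and the activity of the protein need not move together. With partners of the C/EBP family it binds a composite DNA element and switches on genes that import amino acids, make serine, glycine, proline and asparagine, feed carbon units from serine into the folate cycle, and charge tRNAs. In smooth muscle cells this supply serves growth and the making of matrix proteins, collagen above all.

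Values are the FPKM that the authors deposited (fragment counts set relative to gene length and to the mapped total). A gene was called higher or lower when limma on log2(FPKM + 1), fitted to the 11240 genes that averaged 1 FPKM or more, gave a Benjamini-Hochberg adjusted p under 0.05. Fold changes are given on that log2 scale, where the added 1 shrinks the changes of weakly expressed genes, with negative values for lower levels in siPfkfb3, and every adjusted p below is from this fit unless stated. FPKM holds no read counts, so read depth is unknown. A rough reading, from the commonest nonzero value among the authors' new-gene rows, put the deepest library at 1.24 times the shallowest. Each library had 11189 to 11247 genes at 1 FPKM or above. Pfkfb3, the targeted gene, stood at 4.03, 4.02 and 3.86 FPKM in siScrambled and at 1.92, 1.65 and 1.77 FPKM in siPfkfb3. It was low in all 3 siPfkfb3 libraries, although the genotype labels of replicates 2 and 3 name PFKFB4 and PFKFB5.

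Most of the program was lower after Pfkfb3 siRNA, while the transcript of Atf4 itself showed no difference the test could separate. Of the 41 members tested, 26 fell, 1 rose and 14 were not called; among all 11240 genes tested 20.5% fell and 15.8% rose. The median log2 fold change of the tested members was −0.21, against −0.02 for all genes tested. Of 8 adventitial fibroblast markers, genes of the outer artery wall, 5 fell and 1 rose in the same libraries, with a median of −0.20, close to that of the members. The falls were modest, from −0.16 to −0.88, and the largest was that of Psat1, an enzyme of serine synthesis, to 53.6% of its control level. Of the 41 tested members 29, among them all 26 that fell, had 3 siPfkfb3 values below 3 controls. In 2, Slc1a4 and Aldh18a1, they lay above. Separation in the lower direction was seen for 27.7% of all genes tested, and in either direction for 49.5%. The calls rest on the same libraries, so separation of the called genes adds nothing to their calls. One member, the cystine transporter gene Slc7a11, lay under the limit of 1 FPKM and was not tested. In bulk RNA, fewer cells of a type and less RNA per cell cannot be told apart.

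**Figure D1:**
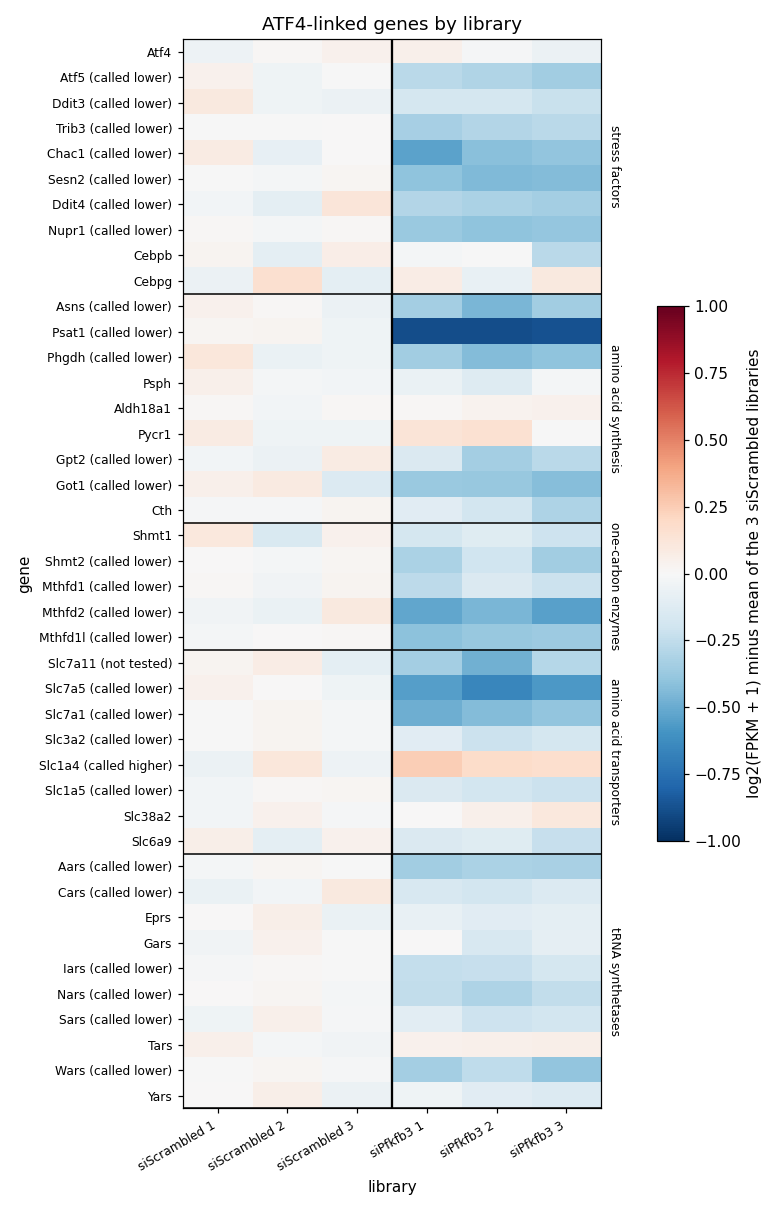
Each row is a member and each column a library; the colour gives log2(FPKM + 1) minus the mean of the 3 siScrambled libraries, blue for lower and red for higher, with black lines between the roles. The 3 siPfkfb3 columns are blue in 26 rows called lower, Psat1 is the darkest row, and Slc1a4 is the row called higher.

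Among the stress factors, 7 of 10 fell (70.0%, against 20.5% of all genes tested) and none rose (against 15.8%). Their median log2 fold change was −0.30. Atf4 (chromosome 15, 80255184 to 80257541, plus strand, GRCm38) stood at 107, 112 and 115 FPKM in siScrambled and at 116, 110 and 107 FPKM in siPfkfb3, in the order of the replicate numbers, as below. The groups overlapped fully, and the difference was −0.01 on the log2 scale, with a 95% interval of −0.09 to 0.08 (limma, adjusted p = 0.922). Atf5, a related factor that is also under translational control and acts in the mitochondrial stress response, stood at 111, 105 and 108 FPKM in siScrambled and at 89.2, 87.2 and 84.6 FPKM in siPfkfb3. The groups did not overlap, and Atf5 fell by 0.31 on the log2 scale (SE 0.04, adjusted p = 0.000166). The pair therefore differed in this comparison although their control levels were close, at 112 ± 3.89 and 108 ± 3.41 FPKM (mean ± SD, n = 3).

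Nupr1, a small stress-induced chromatin protein, had the highest level of the 42 members. It stood at 246, 241 and 246 FPKM in siScrambled and at 189, 185 and 187 FPKM in siPfkfb3, a fall of 0.39 (SE 0.03, adjusted p = 8.09e-06). Chac1, which breaks down glutathione, had the largest fall of the stress factors. It went from 12.0, 10.6 and 11.3 FPKM to 7.52, 8.23 and 8.37 FPKM, a change of −0.45 (SE 0.06, adjusted p = 0.000517). Sesn2, a leucine sensor that restrains the growth kinase mTORC1, was read at 24.54, 24.25 and 24.995 FPKM in siScrambled and at 18.4, 17.9 and 17.9 FPKM in siPfkfb3. Its fall of 0.43 (SE 0.04, adjusted p = 5.01e-05) left siPfkfb3 at 73.4% of the control mean.

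Ddit4, another restrainer of mTORC1 and also a target of the hypoxia-inducible factors, stood at 31.9, 30.4 and 35.5 FPKM in siScrambled and at 26.4, 26.0 and 25.6 FPKM in siPfkfb3. Trib3, a pseudokinase that feeds back on ATF4, was read at 16.2 FPKM in each of the 3 controls and at 12.7, 13.0 and 13.3 FPKM after Pfkfb3 siRNA. Both fell, by 0.32 (adjusted p = 0.00200) and 0.30 (adjusted p = 0.000736). Ddit3, which encodes the pro-death factor CHOP, fell less, from 44.1 ± 2.76 to 38.4 ± 0.823 FPKM (−0.19, adjusted p = 0.0124). A second row of the same symbol is listed at 0 in every library and was not used. The C/EBP partners of ATF4 were not called: Cebpb stood at 1.82 ± 0.161 and 1.64 ± 0.267 FPKM (95% interval of the log2 difference −0.32 to 0.12), and Cebpg at 9.37 ± 1.03 and 9.58 ± 0.686 FPKM (−0.15 to 0.21).

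**Figure D2:**
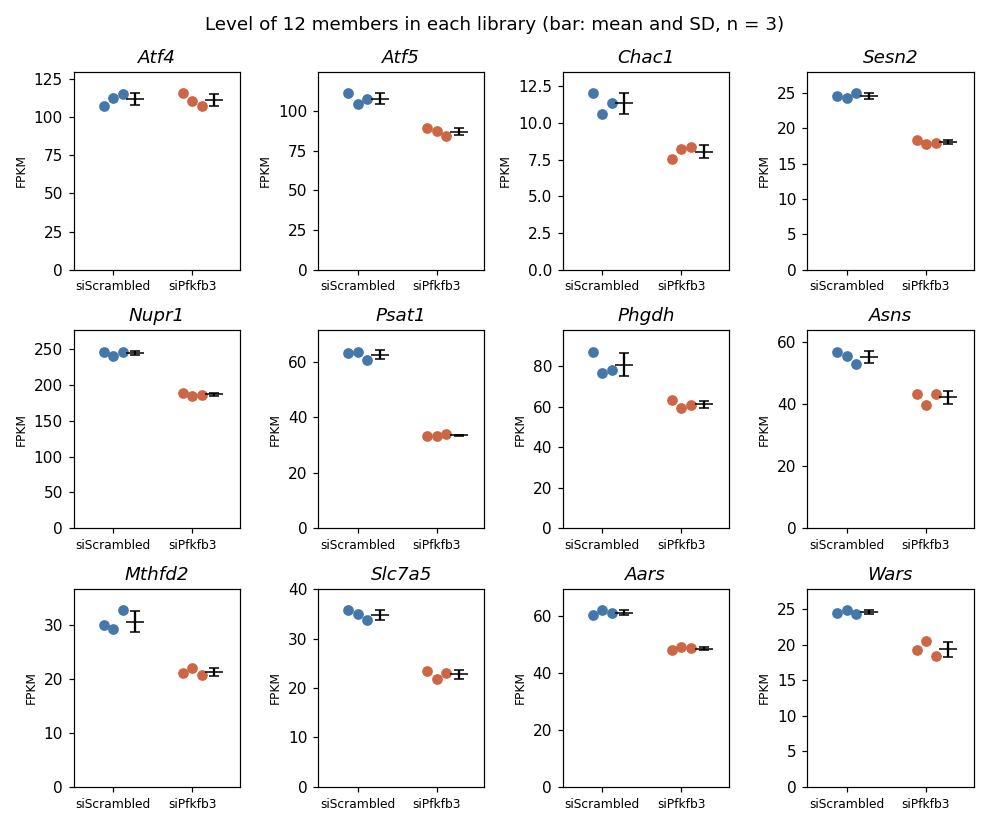
FPKM of 12 members in each library (points; siScrambled blue, siPfkfb3 orange), with the mean and SD of 3 libraries as a black bar, on axes that start at 0. The groups overlap for Atf4 (107 to 115 and 107 to 116 FPKM) and are apart for the other 11.

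In amino acid synthesis 5 of 9 genes fell (55.6%, against 20.5% of all genes tested) and none rose (against 15.8%). Their median was −0.25. The serine branch has 3 steps, and its transcripts differed in how far they fell. Phgdh, the first enzyme, stood at 87.2, 76.8 and 78.2 FPKM in siScrambled and at 63.2, 59.6 and 60.7 FPKM in siPfkfb3, a fall of 0.39 (SE 0.05, adjusted p = 0.000262). Psat1 (chromosome 19, 15904678 to 15947337, minus strand, GRCm38), the second, stood at 63.2, 63.6 and 60.7 FPKM in siScrambled and at 33.3, 33.3 and 33.8 FPKM in siPfkfb3. The siPfkfb3 values of Psat1 were close to each other and far under the controls, and its fall was 0.88 (SE 0.04, 95% interval −0.96 to −0.80, adjusted p = 5.87e-07). Psph, the last enzyme, was at 18.3 ± 0.575 and 17.4 ± 0.696 FPKM, and its overlapping groups were not called (95% interval −0.18 to 0.04, adjusted p = 0.288).

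Asns, which makes asparagine, stood at 56.8, 55.5 and 52.9 FPKM in siScrambled and at 43.3, 39.7 and 43.1 FPKM in siPfkfb3. It fell by 0.38 (SE 0.05, adjusted p = 0.000178). Got1, the cytosolic aspartate aminotransferase, went from 19.7, 20.2 and 17.2 FPKM to 14.5, 14.4 and 13.9 FPKM (−0.39, SE 0.06, adjusted p = 0.00110). Its mitochondrial counterpart Got2, not a member, was not called, at 37.9 ± 0.863 and 36.7 ± 0.833 FPKM (adjusted p = 0.379). Gpt2, a mitochondrial alanine aminotransferase, stood at 6.36, 6.22 and 6.97 FPKM in siScrambled and at 5.79, 4.94 and 5.24 FPKM in siPfkfb3 (−0.25, SE 0.07, adjusted p = 0.0222). The Gpt2 call did not survive leaving out siScrambled replicate 3, or either of siPfkfb3 replicates 2 and 3 (adjusted p up to 0.0855).

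The proline genes were not called. Aldh18a1, which starts proline synthesis from glutamate, stood at 34.3 ± 0.611 and 35.0 ± 0.361 FPKM (95% interval −0.05 to 0.11). Its siPfkfb3 values, from 34.628 to 35.318 FPKM, lay just above its controls, from 33.556 to 34.622 FPKM. Pycr1, which ends proline synthesis, stood at 9.30 ± 0.517 and 9.98 ± 0.630 FPKM (−0.05 to 0.24). Both intervals span 0. Cth, which makes cysteine from cystathionine, was at 2.93 ± 0.0578 and 2.42 ± 0.234 FPKM; its groups did not overlap but it missed the threshold (adjusted p = 0.0691).

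Of the 5 one-carbon enzymes 4 fell (80.0%, against 20.5% of all genes tested), and the other, Shmt1, was not called. Mthfd2, the mitochondrial methylene-tetrahydrofolate dehydrogenase, stood at 30.001, 29.3 and 32.9 FPKM in siScrambled and at 21.2, 22.1 and 20.7 FPKM in siPfkfb3. It fell by 0.50 (SE 0.05, adjusted p = 7.32e-05), to 69.5% of control. Mthfd1l, which releases formate from mitochondria, stood at 8.63, 8.81 and 8.87 FPKM and then at 6.35, 6.53 and 6.61 FPKM (−0.38, SE 0.05, adjusted p = 0.000446). Shmt2, the mitochondrial enzyme that splits serine into glycine and a carbon unit, was read at 35.0, 34.4 and 35.4 FPKM in siScrambled and at 27.9, 30.2 and 27.3 FPKM in siPfkfb3 (−0.29, SE 0.05, adjusted p = 0.00109). All 3 are mitochondrial, and no siPfkfb3 library reached the control range of any of them.

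The cytosolic enzymes of the same cycle moved less on the log2(FPKM + 1) scale or were low. Mthfd1, the cytosolic trifunctional enzyme, fell from 15.9 ± 0.381 to 13.6 ± 0.583 FPKM (−0.21, adjusted p = 0.00964). Shmt1, the cytosolic counterpart of Shmt2, stood at 2.00 ± 0.271 and 1.66 ± 0.0805 FPKM (95% interval −0.37 to 0.03, adjusted p = 0.178). In mean FPKM Shmt1 was at 83.1% of control and Shmt2 at 81.5%, though only Shmt2 was called. Of 23 tested further folate and methionine cycle genes 4 fell (17.4%, against 20.5% of all genes tested) and 2 rose (8.7%, against 15.8%). Their median was −0.05. Among those that fell were Sfxn1, a carrier of serine into mitochondria (15.8 ± 0.572 to 12.0 ± 0.556 FPKM, adjusted p = 0.000507), Aldh1l1 (−0.31, adjusted p = 0.00241) and Ggh (−0.30, adjusted p = 0.00569). Mat2b, a regulator of S-adenosylmethionine synthesis, rose by 0.36 (adjusted p = 0.000270). Tyms, thymidylate synthase, was not called, at 7.24 ± 0.128 and 6.99 ± 0.605 FPKM.

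Folate-bound carbon also feeds DNA synthesis, and transcripts of dividing cells were lower in the same libraries. All 12 of 12 proliferation genes fell (against 20.5% of all genes tested), with a median of −0.69 and a range of −1.23 to −0.22. Their summed level was 238 to 241 FPKM in siScrambled and 150 to 158 FPKM in siPfkfb3. The part of proliferation in the falls of the program was not tested.

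Of the 7 transporters tested 4 fell (57.1%, against 20.5% of all genes tested) and 1 rose (14.3%, against 15.8%). The other 2 were not called, and the median of the 7 was −0.17. Slc7a5 (chromosome 8, 121881150 to 121907694, minus strand, GRCm38), which carries leucine and other large neutral amino acids, stood at 35.8, 34.9 and 33.7 FPKM in siScrambled and at 23.4, 21.8 and 23.1 FPKM in siPfkfb3. It fell by 0.59 (SE 0.05, adjusted p = 1.13e-05), the second largest fall of the tested members. Slc7a1, a carrier of arginine and lysine, went from 20.2, 20.8 and 20.0 FPKM to 14.2, 14.8 and 15.3 FPKM (−0.44, SE 0.05, adjusted p = 8.71e-05). Both sets of siPfkfb3 values lay well under the controls.

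Slc3a2, the heavy chain that pairs with Slc7a5 and with Slc7a11 at the cell surface, fell much less, from 71.6 ± 1.14 to 63.6 ± 2.34 FPKM (−0.17, adjusted p = 0.00603). Slc1a5, a glutamine carrier, fell from 35.5 ± 0.651 to 31.2 ± 0.773 FPKM (−0.18, adjusted p = 0.00578). Slc1a4, a carrier of alanine, serine and cysteine, was the one member that rose. It stood at 14.8, 16.7 and 14.9 FPKM in siScrambled and at 18.5, 17.7 and 17.4 FPKM in siPfkfb3 (0.20, SE 0.06, adjusted p = 0.0229). The call of Slc1a4 ended when the filter on low values was dropped, and with any single library omitted other than siScrambled replicate 2 and siPfkfb3 replicate 3 (adjusted p up to 0.0824).

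Slc7a11, which imports cystine for glutathione, stood at 1.17, 1.24 and 0.993 FPKM in siScrambled and at 0.686, 0.527 and 0.749 FPKM in siPfkfb3. After Pfkfb3 siRNA its mean was thus 57.7% of control, without overlap. When the filter on low values was dropped it was called lower (log2 fold change −0.37, adjusted p = 0.0246). Slc38a2, a carrier of small neutral amino acids that starvation induces, was at 89.8 ± 2.18 and 93.3 ± 3.33 FPKM (95% interval −0.03 to 0.14). Slc6a9, a glycine carrier, was at 8.38 ± 0.549 and 7.36 ± 0.340 FPKM and missed the threshold (adjusted p = 0.0729). Of 15 tested further amino acid carriers 4 fell (26.7%, against 20.5% of all genes tested) and 2 rose (13.3%, against 15.8%). Their median was 0.01. Slc43a2, another carrier of large neutral amino acids, fell by 0.52 (adjusted p = 0.00577), and the mitochondrial ornithine carrier Slc25a15 fell by 0.50 (adjusted p = 0.000370). The mitochondrial carrier Slc25a13 and the lysosomal carrier Slc36a4 fell by 0.28 and 0.20 (adjusted p = 0.0338 and 0.0275), while Slc6a6, a taurine carrier, and Slc38a10 rose by 0.19 and 0.20 (adjusted p = 0.00417 and 0.00150).

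Of the 10 cytosolic tRNA synthetases among the members 6 fell (60.0%, against 20.5% of all genes tested) and none rose (against 15.8%). Their median was −0.16. These enzymes attach an amino acid to its tRNA. Wars, for tryptophan, stood at 24.5, 24.9 and 24.4 FPKM in siScrambled and at 19.2, 20.5 and 18.4 FPKM in siPfkfb3 (−0.33, SE 0.05, adjusted p = 0.000643). Aars, for alanine, stood at 60.3, 62.1 and 61.2 FPKM in siScrambled and at 48.0, 49.0 and 48.8 FPKM in siPfkfb3 (−0.33, SE 0.03, adjusted p = 6.80e-05). Nars, for asparagine, went from 113, 114 and 111 FPKM to 95.1, 91.1 and 94.9 FPKM (−0.27, SE 0.03, adjusted p = 0.000197). In each of the 3 genes every siPfkfb3 library was below every control.

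Iars, for isoleucine, Sars, for serine, and Cars, for cysteine, fell by 0.21, 0.16 and 0.16 (adjusted p = 0.00199, 0.00981 and 0.0309). Cars was the least secure call of the program: it was lost in 8 of 16 alternative settings, among them TPM and trimmed-mean scaling, leaving out siScrambled replicate 3 and leaving out any 1 siPfkfb3 library (adjusted p up to 0.107). Eprs, Gars, Tars and Yars were not called, with log2 fold changes from −0.10 to 0.05. Wars is known in human cells to be induced by interferon. It fell here in libraries where 9 of 11 tested interferon response genes rose (81.8%, against 15.8% of all genes tested). Rsad2 and Gbp2 were not called. The summed level over all 12 interferon response genes listed was 241 to 375 FPKM in siScrambled and 759 to 1050 FPKM in siPfkfb3. Whether Wars responds to interferon in these cells was not tested.

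The synthetases outside the list gave other counts. The 13 further genes of the cytosolic set, which also took in 3 scaffold proteins of the synthetase complex, had a median of −0.04. Of these 1 gene fell (7.69%, against 20.5% of all genes tested) and none rose. That gene was Hars, for histidine, which went from 32.3 ± 0.880 to 20.7 ± 1.83 FPKM (−0.62, SE 0.06, adjusted p = 5.22e-05), a larger change than that of any synthetase among the members. Of 17 mitochondrial synthetases 1 fell (5.88%) and 3 rose (17.6%, against 15.8% of all genes tested), with a median of 0.01. Fars2, for phenylalanine, rose from 3.68 ± 0.535 to 6.25 ± 0.0752 FPKM (0.64, adjusted p = 0.000329), Wars2 and Nars2 rose by 0.30 and 0.29 (adjusted p = 0.0477 and 0.0201), and Iars2 fell by 0.17 (adjusted p = 0.0195). The lists were chosen with earlier results of these data known, so the counts describe them and do not show that the members stand apart.

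**Figure D3:**
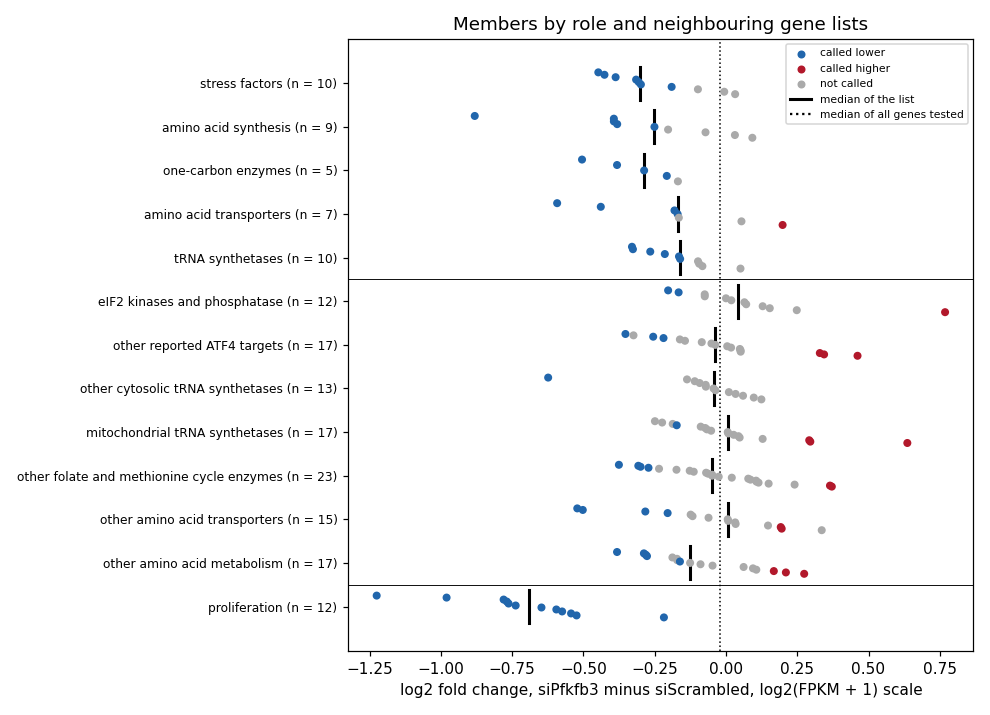
Each point is a tested gene, placed by its log2 fold change (siPfkfb3 minus siScrambled); blue was called lower, red higher and grey not called, black bars are list medians and the dotted line is the median of all genes tested. The 5 upper rows are the members, with medians of −0.30 to −0.16; the 7 middle rows are neighbouring lists, with medians of −0.13 to 0.04; the last row is proliferation, at −0.69.

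The genes that act upstream of ATF4 showed no common direction. The list held 12 genes for the eIF2 kinases, the eIF2 subunits, the phosphatase that reverses the phosphorylation and regulators of the kinases. Of these 2 fell (16.7%, against 20.5% of all genes tested) and 1 rose (8.33%, against 15.8%), with a median of 0.04. Eif2ak2, which encodes PKR, a kinase that senses double-stranded RNA and is itself induced by interferon, rose from 15.5 ± 0.875 to 27.3 ± 4.02 FPKM (0.77, SE 0.10, adjusted p = 0.000537). Eif2ak1, the haem-regulated kinase, and Dele1, which relays mitochondrial stress to it, fell by 0.17 and 0.20 (adjusted p = 0.0367 and 0.0280). The kinases of endoplasmic reticulum stress and of amino acid shortage, Eif2ak3 and Eif2ak4, were not called (0.13, adjusted p = 0.0993, and 0.07, adjusted p = 0.424). These are transcript levels; phosphorylation of eIF2 and ATF4 protein were not measured.

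Other genes reported as ATF4 targets were called in both directions, at shares close to those of all genes tested. Of 17 tested, 3 fell (17.6%, against 20.5% of all genes) and 3 rose (17.6%, against 15.8%), with a median of −0.04. Vldlr, a lipoprotein receptor, fell from 10.9 ± 0.614 to 8.28 ± 0.0844 FPKM (adjusted p = 0.00102), and Jdp2 and Tsc22d3 fell by 0.26 and 0.22 (adjusted p = 0.00215 and 0.0225). Nfe2l1, the factor that restores proteasomes, rose from 81.9 ± 0.226 to 113 ± 3.22 FPKM (0.46, adjusted p = 7.39e-06). Ero1l, an oxidase of disulphide formation, and Gdf15, a secreted stress hormone, rose by 0.34 and 0.33 (adjusted p = 0.000467 and 0.00155). In other amino acid metabolism 5 of 17 genes fell (29.4%) and 3 rose (17.6%), with a median of −0.13. Sdsl, a serine dehydratase relative, Asl, of the urea cycle, and Glud1, glutamate dehydrogenase, fell by 0.38, 0.29 and 0.28 (adjusted p = 0.0146, 0.00529 and 0.000132). Aldh4a1, of proline breakdown, fell by 0.28 (adjusted p = 0.00550).

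Ratios of FPKM + 1 within a library show whether partners changed unequally, largely free of the library's scale. The added 1 affects ratios that hold a weakly expressed gene. For Psat1 over Phgdh the siScrambled log2 ratios were −0.46, −0.27 and −0.36, against −0.90, −0.82 and −0.83 with siPfkfb3, lower by 0.49. For Slc7a5 over its heavy chain Slc3a2 the values were −0.98, −1.04 and −1.04 against −1.46, −1.46 and −1.41, lower by 0.42. For Mthfd2 over Mthfd1 they were 0.86, 0.88 and 0.98 against 0.65, 0.60 and 0.58, lower by 0.30. In these 3 pairs the libraries of the groups did not overlap, so the first-named partner had fallen further in every siPfkfb3 library.

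Wars over Gars was lower by 0.25 and Slc7a11 over Slc3a2 by 0.20, both without overlap. The last of these depends on the pseudocount, since Slc7a11 is low: it was lower by 0.55 with a pseudocount of 0.1. Shmt2 over Shmt1 overlapped between groups, at 3.58 ± 0.118 and 3.47 ± 0.0338 (mean ± SD, n = 3 each; exact two-sided permutation test, p = 0.2). Shmt1 is low as well, and in mean FPKM Shmt2 was at 81.5% and Shmt1 at 83.1% of control. For each of the other 5 pairs p was 0.1 by the same exact permutation test, the smallest value that 3 against 3 libraries allow, and p = 0.12 after Benjamini-Hochberg adjustment over the 6 pairs. None of the 6 could therefore pass 0.05 in this design. Of all single genes tested, 49.5% had groups that did not overlap. How often ratios of other gene pairs are apart was not tested.

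**Figure D4:**
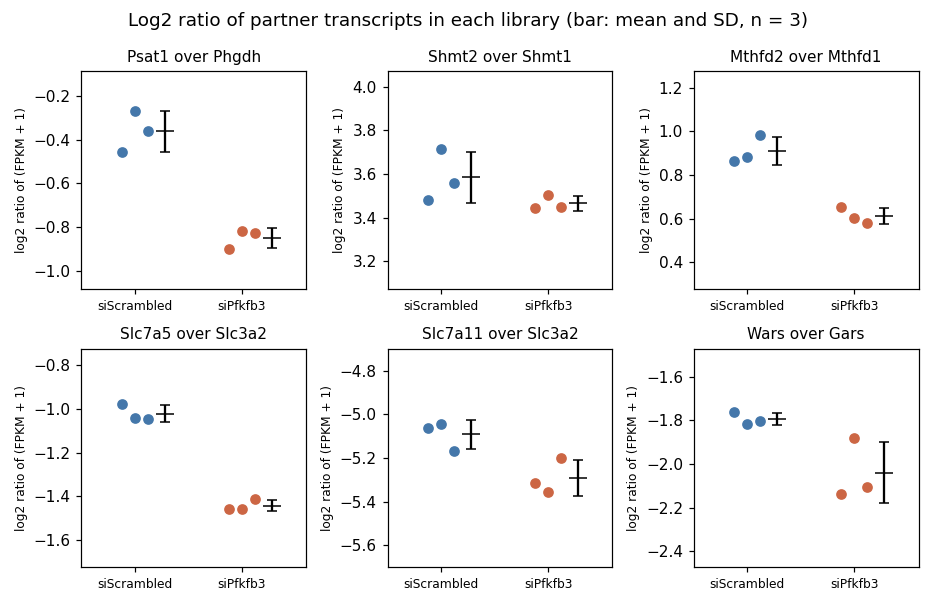
Log2 ratio of (FPKM + 1) of 6 pairs of partner transcripts in each library (points), with the mean and SD of 3 libraries as a black bar; every axis spans 1 unit. The groups are apart in 5 pairs and overlap for Shmt2 over Shmt1.

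The composite element that ATF4 binds with C/EBP proteins was looked for in promoters as TGATGNAA, read on both strands, in the 250 bases before and 50 bases after each RefSeq start site (GRCm38.p6). The promoter table held 36 of the 42 members, and 13 of these, 36.1%, had at least 1 match. A match was present in 4.51% of all 27025 genes with a promoter listed and in 2.70% of the 8644 of them that were tested. The members were listed for their link to ATF4, so a higher share among them may be built into that choice. It is no result of the siRNA comparison. Some matches are shown with the 8 bases on each side, 5′ to 3′ on the strand of the motif, which is in capitals, with positions of the printed bases in GRCm38. Chac1, Nupr1, Asns, Aars and Trib3 fell, Slc1a4 rose, Pycr1 and Tars were not called, and Slc7a11 was not tested.
Chac1, chr2:119351041-119351064, minus strand: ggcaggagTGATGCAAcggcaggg
Nupr1, chr7:126625565-126625588, plus strand: gccctgtcTGATGCAAtctggccc
Asns, chr6:7693217-7693240, minus strand: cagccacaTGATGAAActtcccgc
Aars, chr8:111033722-111033745, minus strand: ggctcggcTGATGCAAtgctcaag
Trib3, chr2:152344031-152344054, plus strand: cgcccggcTGATGTAAacctgagc
Slc1a4, chr11:20332702-20332725, plus strand: gctggagaTGATGCAAcgcaggag
Pycr1, chr11:120643836-120643859, minus strand: cctgtgtaTGATGCAAtgcacaag
Tars, chr15:11399658-11399681, plus strand: taaccagcTGATGCAAcgggactc
Slc7a11, chr3:50443645-50443668, plus strand: ctgcatgaTGATGCAAattctcca

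The motif was not limited to members of 1 direction. It was found in 7 of the 21 members that fell and are in the table, 33.3%, and in 6 of the 15 others, 40.0%. The sequences above show the same letters TGATGCAA in Chac1, Nupr1 and Aars, which fell, in Slc1a4, which rose, and in Pycr1 and Tars, which were not called. Psat1, Mthfd2, Slc7a1 and Sesn2, which had some of the larger falls, had no match in this window, which says nothing of sites elsewhere. A match is a match of letters, not a bound site.

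In earlier results of these data the heptamer GAAGAAC in 3′ UTRs went with lower values, so the members were read for it, a choice made after seeing the data; the siRNA's sequence was not used here, and whether the heptamer relates to it was not tested. It occurs in the longest annotated 3′ UTR of 3 of the 41 tested members, Mthfd1l, Slc7a5 and Slc3a2, and all 3 fell. Of the 38 without it 23 fell and 1 rose, with a median log2 fold change of −0.21. Among all tested genes with a 3′ UTR 33.5% of 1186 carriers and 19.3% of 9662 others fell.

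The markers of the labelled cell type were present at unequal levels. Acta2 and Tagln, contractile genes that other mesenchymal cells also express, stood at 1340 ± 39.0 and 716.7 ± 10.1 FPKM in siScrambled, whereas the more restricted Myh11, smooth muscle myosin, stood at 16.6 ± 0.108 FPKM and its activator Myocd at 1.51 ± 0.282 FPKM. Of 8 smooth muscle markers 2 rose, Acta2 (0.34, adjusted p = 2.05e-05) and Cnn1 (0.20, adjusted p = 0.0112), and none was called lower. The other 6 had negative log2 fold changes, 5 of them (Tagln, Myh11, Smtn, Myocd and Des) without overlap between groups, and the list median was −0.08. The summed level of 6 endothelial markers was 1.01 to 1.17 FPKM in siScrambled and 0.540 to 0.841 FPKM in siPfkfb3, with Cdh5 and Emcn listed at 0 in some libraries of both groups. The 7 macrophage and leukocyte markers summed to 14.8 to 15.4 and 16.0 to 16.6 FPKM, mostly Lyz2, and the pan-leukocyte marker Ptprc was at or under 0.0179 FPKM in every library. Adventitial fibroblast markers were abundant, with Dcn at 356 ± 19.7, Serpinf1 at 277 ± 3.22 and Lum at 238 ± 8.63 FPKM in siScrambled, and the 8 summed to between 1120 and 1140 FPKM in siScrambled and between 976 and 1025 FPKM in siPfkfb3. The sum rests on those 3 and on Ly6a, and it does not show the larger falls of Cd34, to 43.9% of control (−1.05, adjusted p = 1.33e-06), and Dpt, to 53.6% (−0.88, adjusted p = 3.88e-06). Pi16, Serpinf1 and Lum fell by 0.35, 0.20 and 0.14, Pdgfra rose by 0.14, and Dcn and Ly6a were not called. The share called lower was 62.5%, against 63.4% of the members. The part of fibroblast-type cells or of their state in the falls of the program was not tested.

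Exons of 12 of the 42 members overlap a gene on the opposite strand in GENCODE M21. They include Aars, Atf5, Ddit3, Cars, Mthfd1, Shmt2, Psph and Yars. Exons of 3 members, Aars, Cebpg and Ddit3, overlap a gene on the same strand, where strand would not separate the reads. Whether counting used strand is not given, so the values of all these members may hold reads of the other gene.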

How the data were processed

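HISAT2 and the build GRCm38 (mm10) are named in the submitters' processing notes; no counting tool, annotation or strand setting is stated in the sources used here. Expression was deposited by the authors as FPKM, per the file headers, in a single table of 6 library columns. Groups and replicate numbers come from the sample titles. Of 22036 Ensembl rows 22022 matched a symbol; the other 2934 rows are new genes of the authors.

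Genes averaging 1 FPKM or more were tested on log2(FPKM + 1) with limma 3.58.1 in R 4.3.3 (intensity trend, robust fit, two-sided). The members and lists were chosen with earlier results of these data known. Values in every sample were given for Atf4, for called members with an absolute log2 fold change of at least 0.25, and for at least the 2 largest changes of each role, with Slc1a4 and Slc7a11 added after their values were seen; of each neighbouring list up to 4 called genes were to be named, a limit passed for some lists and not filled for others, and some genes of these lists are not reported here. On values simulated for 11240 genes limma recovered 200 of 200 planted changes, with 10 false calls. The planted changes were all rises, and larger than the median fall of the members called lower (−0.32). Recovery of smaller changes was not tested. Ratios were compared with the exact permutation test. Same-numbered libraries of the groups deviated together at −0.11, 0.06 and 0.06 (Pearson's r across genes), so the numbers were not taken as pairs. Promoters are from RefSeq, and 3′ UTRs and positions from GENCODE M21. Python 3.11.15 was used.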

Additional observations from a re-analysis of the deposited data

How the results depend on the processing

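Alternatives were pseudocounts of 0.1 and 0.5, no filter or a filter of 5 FPKM, TPM, trimmed-mean and quantile scaling, limma without trend and robust fit, no new-gene rows, a replicate block, and leaving out each library. Members called lower were 24 to 27 across all 16, with 24 to 27 when a library was left out, and 26 with the replicate block, which changed no call of a member count. The count of members called higher, and of transporters called higher, fell from 1 to 0 without a filter on low values and ranged from 0 to 1 when a library was left out. Of the 27 called members 24 stayed called in each alternative that tested them; the exceptions were Gpt2, Slc1a4 and Cars. Neither Atf4 nor Cebpg was called, and both changed sign: the Atf4 log2 fold change was 0.0159 with TPM, 0.0193 with trimmed-mean scaling and −0.0349 to 0.0188 when a library was left out, above 0 without siScrambled replicate 3 or siPfkfb3 replicate 3. The Cebpg log2 fold change ran from −0.017 to 0.1125 when a library was left out, below 0 without the same libraries; the causes were not tested. The median log2 fold change of all genes lay between −0.0261 and −0.0002 in all settings. Not called otherwise, Cth was called without trend and robust fit (adjusted p = 0.0349), Slc6a9 without siScrambled replicate 2 (adjusted p = 0.0331) and Slc7a11 without a filter (adjusted p = 0.0246). With no counts deposited, the precision that depth gives to low genes such as Slc7a11, Cebpb and Shmt1 is unknown.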
